A study of Mus musculus with 8 samples.

Results

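The genes described here encode the histone deacetylases outside the NuRD complex, the Polycomb proteins, the enzymes that add or remove methyl groups on histone lysines, the enzymes of DNA methylation, and 3 histone acetyltransferases that oppose the deacetylases. They were taken by symbol from a list of 58 genes. All 58 were found among the 54532 genes of the table and all 58 passed the filter on low counts. The mice carried Chd4flox/flox alleles in both groups and were injected on postnatal day 2. KO mice received AAV9:Nppa-Cre, a viral vector that expresses Cre recombinase from the promoter of the atrial cardiomyocyte gene Nppa, and control mice received AAV9:Nppa-EGFP. Each group had 4 libraries of polyadenylated RNA from whole atria, labelled right and left and of mixed cell type, so other cells of the atria, which the promoter does not target, were measured too. Age at collection is not given in the sources used here, nor is the number of mice behind each library. Cre was in KO and EGFP in control only, so effects of either protein and the loss of Chd4 cannot be told apart. No preparation batch is stated in the sources used here. The names of the count columns give only the vector and a number. A batch that followed the groups could therefore not be told apart from them either.

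Histone deacetylases remove acetyl groups from histone tails and other proteins. Class IIa deacetylases are known in the heart for holding back the MEF2 transcription factors, and sirtuins are deacetylases that depend on NAD. Polycomb repressive complex 2 (PRC2) methylates lysine 27 of histone H3, while Polycomb repressive complex 1 (PRC1) reads that mark and ubiquitinates histone H2A. DNA methyltransferases methylate cytosine in the dinucleotide CG, and TET enzymes oxidise that methyl group towards its removal. CHD4, the targeted protein, is the remodelling ATPase of NuRD, a complex that has its own deacetylases.

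Promoter sequence was matched by symbol for 49 of the 58 genes in the RefSeq table (GRCm38.p6), with 69 windows of 300 bases around transcription starts. These windows held a median of 24 CG dinucleotides, against 7 over all 32851 windows of the table. With an observed over expected CG of at least 0.6 and at least 50% GC, 78.3% were CG-rich, against 33.5% of all windows. All windows cover 27025 genes, whether or not they passed the filter on low counts, while all 58 genes passed it. The share among genes that passed was not computed, so CG richness is not shown to be particular to the 58. The promoters of Bmi1 (chr2:18676768-18677017, plus strand), Tet1 (chr10:62887325-62887412, minus strand) and Hdac11 (chr6:91156565-91156664, plus strand) are shown because these 3 of the 58 genes fell in KO and kept that call in each alternative run. CG dinucleotides, the substrate of DNA methyltransferases, are in capitals, and stretches inside GENCODE exons were left out.
Bmi1: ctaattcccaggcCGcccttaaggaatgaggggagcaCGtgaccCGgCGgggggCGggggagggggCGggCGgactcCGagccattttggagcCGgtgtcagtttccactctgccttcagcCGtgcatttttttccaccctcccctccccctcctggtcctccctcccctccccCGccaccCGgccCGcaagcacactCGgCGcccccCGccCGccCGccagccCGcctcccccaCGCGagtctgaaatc
Tet1: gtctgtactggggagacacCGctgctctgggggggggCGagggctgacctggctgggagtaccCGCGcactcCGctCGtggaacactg
Hdac11: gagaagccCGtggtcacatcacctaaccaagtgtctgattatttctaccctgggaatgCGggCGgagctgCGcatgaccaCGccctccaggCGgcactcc
The Bmi1 stretch held 21 CG in 250 bases, the Tet1 stretch 6 in 88 bases and the Hdac11 stretch 6 in 100 bases. The RefSeq start site of Tet1 (62887324) lies inside the GENCODE gene positions given below, not at their upstream end. The Hdac11 stretch ends 151 bases before its start site. Which start sites were in use in these atria was not examined.
The promoter of Hdac5 (chr11:102230173-102230422, minus strand) is shown for a match to a MEF2 motif, in capitals, since HDAC5 is a known partner of MEF2.
Hdac5: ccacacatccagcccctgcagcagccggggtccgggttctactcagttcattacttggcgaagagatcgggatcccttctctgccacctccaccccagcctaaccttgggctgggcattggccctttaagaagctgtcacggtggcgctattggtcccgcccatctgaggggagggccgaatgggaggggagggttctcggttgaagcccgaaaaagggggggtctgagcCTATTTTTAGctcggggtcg
The match lay 20 to 11 bases before the start site. Searched on both strands, exactly these letters were in 1 of the 69 windows (1.45%) and in 0.11% of all windows. They were chosen after the sequence had been seen, so the comparison is a description only. The letters AGGTGT, the core of the motif that T-box factors such as TBX5 bind, were searched on both strands as well. They were in 5 of the 69 windows (7.25%), those of Hdac6, Ezh1, Kdm2b, Kdm5b and Dnmt1, and in 13.7% of all windows.

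Total counts were 34002292 to 38228982 in KO and 39804625 to 40588007 in control. Chd4 was at 169 to 199.6 CPM (counts per 1000000 counts of the library on the TMM scale) in KO and 278 to 308 CPM in control. Cardiomyocyte markers were present in every library, but their sum over 12 genes was 51111 to 64871 CPM in KO and 76685 to 85182 CPM in control, and 9 of the 12 fell while 2 rose. Summed endothelial markers were at 2128 to 2443 CPM against 1872 to 2029.81 CPM in control, with 6 of 10 called higher and 1 lower. Fibroblast markers were at 7974 to 10993.5 against 6932 to 7771 CPM (6 of 10 higher), and epicardial markers at 912 to 1121 against 669.526 to 871 CPM (8 of 10 higher). Lymphocyte markers were at 40.6393 to 84.6 against 10.4 to 40.5821 CPM (2 of 10 higher). Macrophage markers overlapped, at 462 to 649 against 377 to 488 CPM (5 of 10 higher), as did smooth muscle markers (4 of 10 higher, 2 lower) and Schwann and neuronal markers (0 of 7 tested called by edgeR). Several of these counts moved with single libraries. Of the 7 endothelial calls, 2 were kept without KO 3 or control 4 and 3 without control 1. Of the 8 epicardial calls, 5 were kept without KO 2, KO 4 or control 4. Of the 2 lymphocyte calls, 0 were kept by edgeR without KO 2 or control 4 and 1 without KO 1, KO 3, control 1 or control 2. Of the 5 macrophage calls, 2 were kept without KO 4 and 3 without KO 1, KO 2 or control 1. Of the 6 smooth muscle calls, 2 were kept without KO 4 and 3 without KO 1, KO 3, control 2 or control 3. No listed marker was at 0 in all libraries. In whole atria, fewer cells of a type and less RNA per cell cannot be told apart.

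Most of the 58 chromatin genes were not called between KO and control atria. By edgeR's quasi-likelihood test with Benjamini-Hochberg adjustment over 18033 genes, 3 rose and 7 fell, and the other 48 did not pass. The called share was 17.2%, against 27.9% of all genes tested. For higher genes it was 5.17% against 14.8%, and for lower genes 12.1% against 13.1%. With libraries scaled by total counts only, 6 of the 58 were higher and 3 lower, and 70.1% of all called genes were higher, against 53.2% with the main scaling. The median log2 fold change of the 58 genes was -0.03, and over all genes tested it was 0.01. Phc1 alone among the 58 had a fitted change past 1.5-fold, a size reached by 18.2% of all genes tested, and 0 of the 58 passed 2-fold (7.37% of all genes tested). The libraries of both groups did not overlap for 3 genes that were higher in KO (15.3% of all genes tested) and 9 that were lower (13.9%).

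A gene that was not called need not be equal in both groups, so the interval of its difference was read as well. All 48 genes that were not called had an unadjusted 95% interval inside 1.5-fold in either direction, and for 30 of them it lay inside 1.25-fold. The widest belonged to Smyd2 (-0.49 to 0.53 on the log2 scale), with 14.2 CPM in control 1 and 7.27 to 7.67 CPM in the other controls. All these differences are relative to the rest of each library, and a change shared by all genes would not be seen.

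**Figure D1:**
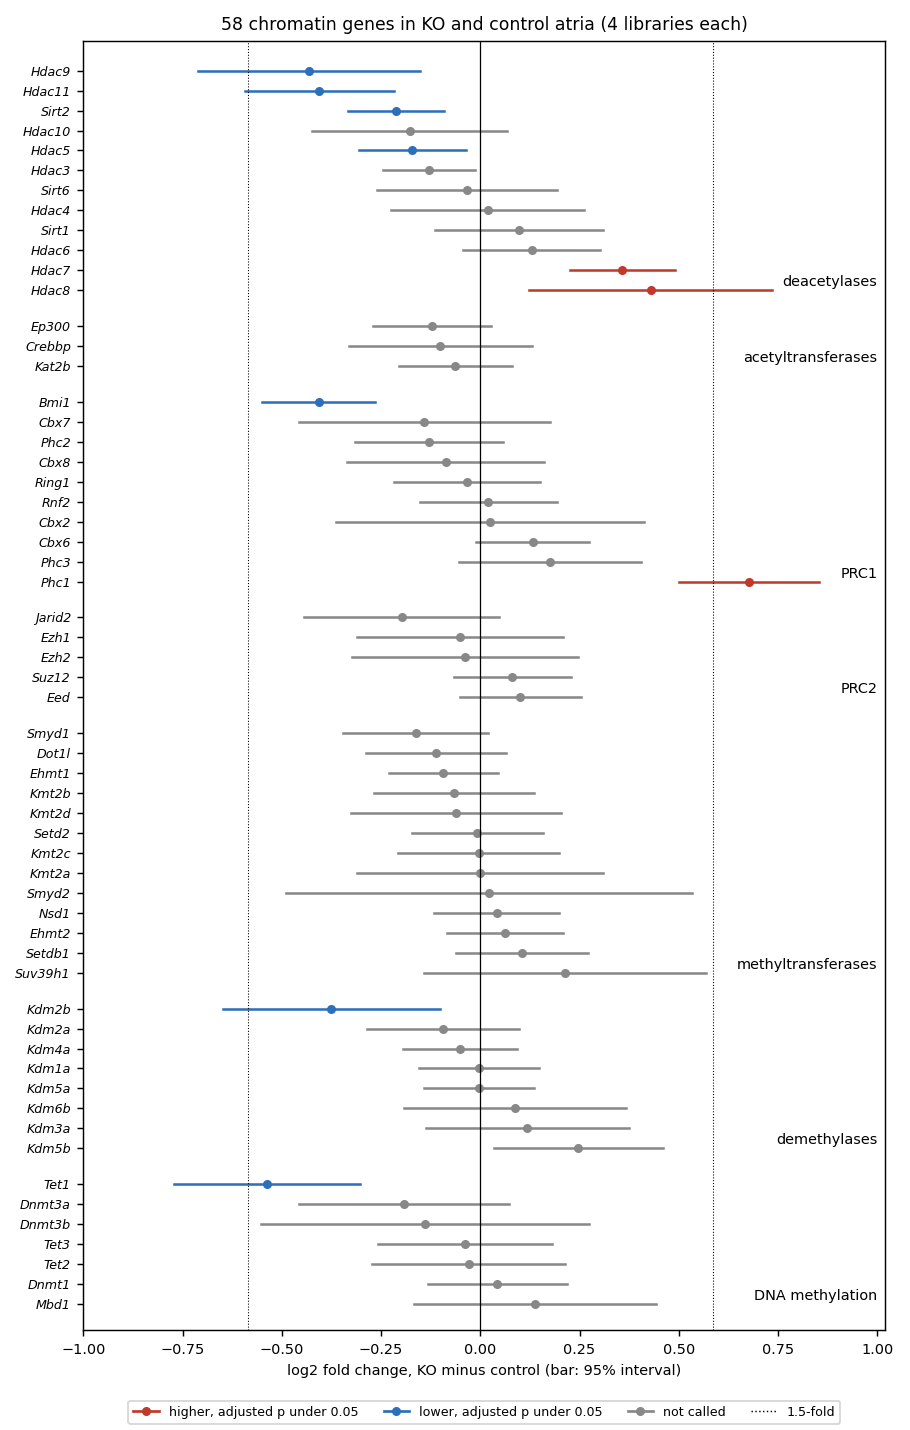
Log2 fold change of each of the 58 genes (KO minus control, x axis) with its 95% interval, grouped by function; red and blue mark genes called higher or lower by edgeR and dotted lines mark 1.5-fold. The 3 red genes are Phc1, Hdac7 and Hdac8, and the grey intervals all lie between the dotted lines.

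Levels per length, given as CPM per kilobase of merged exon (RPKM), spanned a wide range in control atria. Smyd1, a methyltransferase of heart and skeletal muscle needed for sarcomere assembly, was the highest of the 58 at 119 ± 7.37 RPKM (SD, n = 4). Kat2b, the acetyltransferase PCAF, followed at 26.1 ± 1.56 RPKM, then Bmi1 at 19.3 ± 0.919 and Sirt2 at 18.4 ± 0.572 RPKM. The ranges of 1 SD around Bmi1 and Sirt2 overlapped. At the other end were Dnmt3b, a de novo DNA methyltransferase active mainly in early embryos, at 0.615 ± 0.102 RPKM, and Hdac8 at 0.978 ± 0.0918 RPKM.

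**Figure D2:**
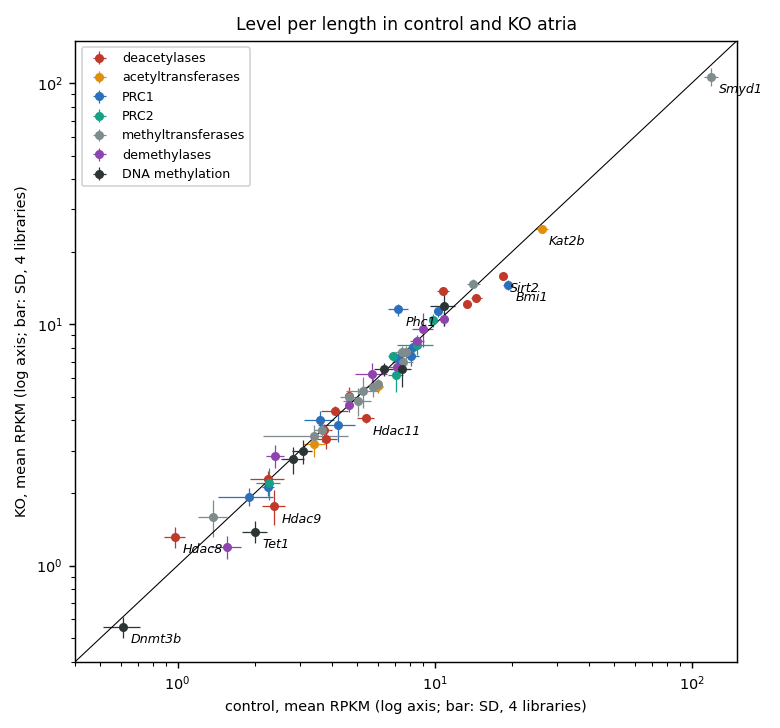
Mean RPKM of each gene in control (x axis) and KO (y axis), both log axes, with SD over 4 libraries as bars and the line of equality. Smyd1 lies apart at 119 RPKM in control, and Phc1 lies above the line while Bmi1, Tet1, Hdac9 and Hdac11 lie below it.

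Of 12 deacetylase genes, edgeR called 2 higher and 4 lower, and 6 did not pass (7 were called by DESeq2 and 7 by limma-voom). The higher share was 16.7%, against 14.8% of all genes tested, and the lower share 33.3%, against 13.1%. Hdac7, a class IIa deacetylase known for its role in endothelial cells (ENSMUSG00000022475, chromosome 15, 97792664 to 97844502), rose. In KO 1 to 4 it was at 94.98, 91.9, 91.5 and 94.4 CPM, against 69.3, 78.2, 70.8 and 72.6 CPM in controls 1 to 4. Each KO library lay above each control, a 1.28-fold increase (log2 fold change 0.36, SE 0.05, edgeR adjusted p = 0.000467). Endothelial markers had a median log2 fold change of 0.20 in the same libraries, and their part in the Hdac7 result was not tested.

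Hdac9 and Hdac5, class IIa deacetylases known to restrain heart muscle growth through MEF2, fell. Hdac9 lies on chromosome 12, 34047580 to 34917095. Controls 1 to 4 were at 32.4, 33.03, 40.1 and 33.97 CPM, while KO 1 to 4 were at 20.9, 28.9, 29.8 and 23.7 CPM. The groups did not overlap, and KO 1 was the lowest library (log2 fold change -0.43, SE 0.11, edgeR adjusted p = 0.0157). The call was lost without KO 4 (0.0509), against controls 1 and 2 alone (0.0933) and with total counts (0.057).

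Hdac5 (chromosome 11, 102194432 to 102230166), whose promoter holds the MEF2 match, changed less. Its level was 112, 109, 119 and 114 CPM in KO 1 to 4 and 124, 124, 126 and 137 CPM in controls 1 to 4. The groups did not overlap (log2 fold change -0.17, SE 0.06, edgeR adjusted p = 0.0363). Leaving out KO 2, KO 4, control 1, control 3 or control 4 ended the call (edgeR adjusted p of 0.0539 to 0.109), as did total counts (0.248), no filter (0.0849) and controls 1 and 2 alone (0.149). Hdac4, the remaining class IIa gene, had 32.9 to 38.9 CPM (KO) and 30.97 to 43.1 CPM (control), which overlapped.

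The class IIa transcripts shifted in proportion while their sum overlapped between groups. Summed, they were at 30.8 ± 0.62 RPKM in KO and 29.9 ± 1.05 RPKM in control (SD, n = 4 each). The share of Hdac7 in that sum was 43% to 46.2% in KO against 34.8% to 37.8% in control. For Hdac5 the share was 41.4% to 42.9% in KO against 46% to 50.4% in control, and for Hdac9 4.68% to 6.55% in KO against 7.35% to 9.21% in control. These 3 shares did not overlap between the groups, while those of Hdac4 did. They come from the same counts as the fold changes and were not tested.

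Hdac11, the single class IV deacetylase (chromosome 6, 91156665 to 91174692), fell. KO 1 to 4 had 16.8, 15.3, 15.4 and 15.3 CPM, and controls 1 to 4 had 19.2, 20.4, 22.9 and 20.7 CPM. The KO libraries other than KO 1 lay close together, and the groups did not overlap (log2 fold change -0.41, SE 0.08, edgeR adjusted p = 0.00219). Gm44002 on the opposite strand overlaps 15.4% of its exon bases, and without a stated strand setting reads of both cannot be told apart.

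Sirt2, a mostly cytoplasmic sirtuin (chromosome 7, 28766735 to 28788661), fell by a small amount. In KO 1 to 4 it was at 77.7, 80.6, 80.1 and 81.4 CPM, against 89.9, 96.5, 93.2 and 91.2 CPM in controls 1 to 4. The groups did not overlap (log2 fold change -0.21, SE 0.05, edgeR adjusted p = 0.00729). Total counts ended the call (0.0865). The nuclear sirtuin gene Sirt1 had 22.5 to 24.6 CPM (KO) and 19.1 to 25.4 CPM (control), and Sirt6 had 9.35 to 10.7 CPM (KO) and 9.44 to 11.1 CPM (control), neither of them called.

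Hdac8, an X-linked class I deacetylase (chromosome X, 102284639 to 102505359), rose from a low level. Controls 1 to 4 were at 5.38, 4.56, 4.39 and 4.58 CPM, while KO 1 to 4 were at 5.46, 6.5, 6.97 and 6.53 CPM. The groups did not overlap, but KO 1 and control 1 almost met (log2 fold change 0.43, SE 0.13, edgeR adjusted p = 0.0241). Leaving out KO 2, KO 3, KO 4, control 2, control 3 or control 4 ended the call (edgeR adjusted p of 0.0504 to 0.0748), as did either pair of controls alone (0.0583 and 0.181). Hdac3, the deacetylase of the NCoR complexes, missed the threshold although its groups did not overlap. Its level was 49.8, 50.1, 49.4 and 48.4 CPM in KO 1 to 4 and 53.7, 53.8, 54.7 and 54.3 CPM in controls 1 to 4. Its adjusted p was 0.0619 by edgeR (log2 -0.13) and 0.0367 by DESeq2. The class IIb genes Hdac6, which encodes a tubulin deacetylase, and Hdac10 had log2 values of 0.13 and -0.18 (edgeR adjusted p of 0.2 and 0.212).

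The acetyltransferase genes Ep300, Crebbp and Kat2b, which encode coactivators, were not called. The number called was 0 of 3 by edgeR, by DESeq2 and by limma-voom, with 0 at an unadjusted p under 0.05 (27.9% of all genes tested were called by edgeR). Ep300 had 72.9 to 85.5 CPM (KO) and 82.5 to 90.01 CPM (control). Crebbp had 35.6 to 46 CPM (KO) and 41.8 to 51.1 CPM (control), with KO 1 the lowest, and Kat2b had 117 to 127 CPM (KO) and 118 to 136 CPM (control).

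**Figure D3:**
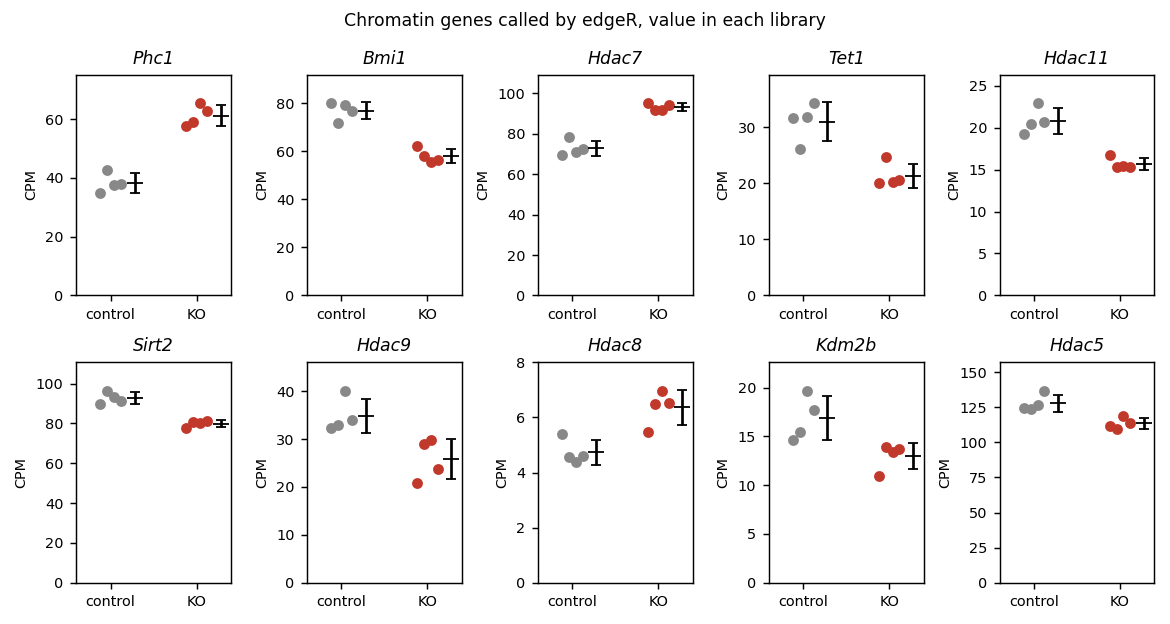
CPM (y axis, from 0) of the 10 called genes in each of the 4 control and 4 KO libraries, with mean and SD beside the points. The groups do not overlap in any panel, and Hdac8 has a narrow gap, between 5.38 CPM in control 1 and 5.46 CPM in KO 1.

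Among PRC1 genes, 1 subunit rose, 1 fell and 8 of 10 did not pass, a called share of 20% against 27.9% of all genes tested. DESeq2 called 2 of them and limma-voom 3. Phc1, a Polyhomeotic subunit that helps compact Polycomb-bound chromatin (ENSMUSG00000040669, chromosome 6, 122317731 to 122340561), had the largest fitted change of the 58. KO 1 to 4 had 57.6, 58.95, 65.4 and 62.6 CPM, and controls 1 to 4 had 34.7, 42.8, 37.6 and 37.9 CPM. The lowest KO library lay well above the highest control, a 1.598-fold increase (log2 fold change 0.68, SE 0.07, edgeR adjusted p = 3.64e-05).

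Bmi1, the PCGF subunit that activates the RING ligase and is known for repressing the Cdkn2a locus (ENSMUSG00000026739, chromosome 2, 18677018 to 18686629), fell. In KO 1 to 4 it was at 61.97, 58.2, 55.3 and 56.4 CPM, against 79.9, 71.7, 79.02 and 76.7 CPM in controls 1 to 4. The groups were well separated, a 1.33-fold decrease (log2 fold change -0.41, SE 0.06, edgeR adjusted p = 0.000317). Its CG-dense promoter is the first sequence printed above.

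The make-up of both subunit families differed between the groups. Of the summed RPKM of Phc1, Phc2 and Phc3, Phc1 made up 48.6% to 51.9% in KO against 36.9% to 41% in control. That sum was 23 ± 1.54 RPKM in KO and 18.9 ± 0.878 RPKM in control (SD, n = 4 each), without overlap. Of the PCGF family, with Pcgf1, Pcgf2, Pcgf3, Pcgf5 and Pcgf6, Bmi1 made up 43.3% to 48.5% in KO against 50.1% to 52% in control. The PCGF sum was 32.1 ± 0.441 RPKM in KO and 38 ± 1.42 RPKM in control, also without overlap. The shares of the other PCGF genes overlapped. These shares and sums come from the same counts as the fold changes of Phc1 and Bmi1 and were not tested.

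The other PRC1 subunits were not called by edgeR in the main run. Ring1 and Rnf2 encode the ubiquitin ligases of the complex. Ring1 had 24.2 to 29.3 CPM (KO) and 25.04 to 27.8 CPM (control), and Rnf2 had 28.1 to 32.7 CPM (KO) and 27.7 to 31.3 CPM (control). CBX proteins read methylated lysine 27. Cbx6 had a log2 value of 0.13 (edgeR adjusted p = 0.113), Cbx7 -0.14 (0.454), Cbx8 -0.09 (0.564) and Cbx2 0.02 (0.933). Cbx6 passed by limma-voom (adjusted p = 0.0323), and by edgeR with total counts (0.0241) and without KO 1 (0.0274). Phc2 had -0.13 (0.231) and Phc3 0.18 (0.191, and 0.0289 without control 2).

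**Figure D4:**
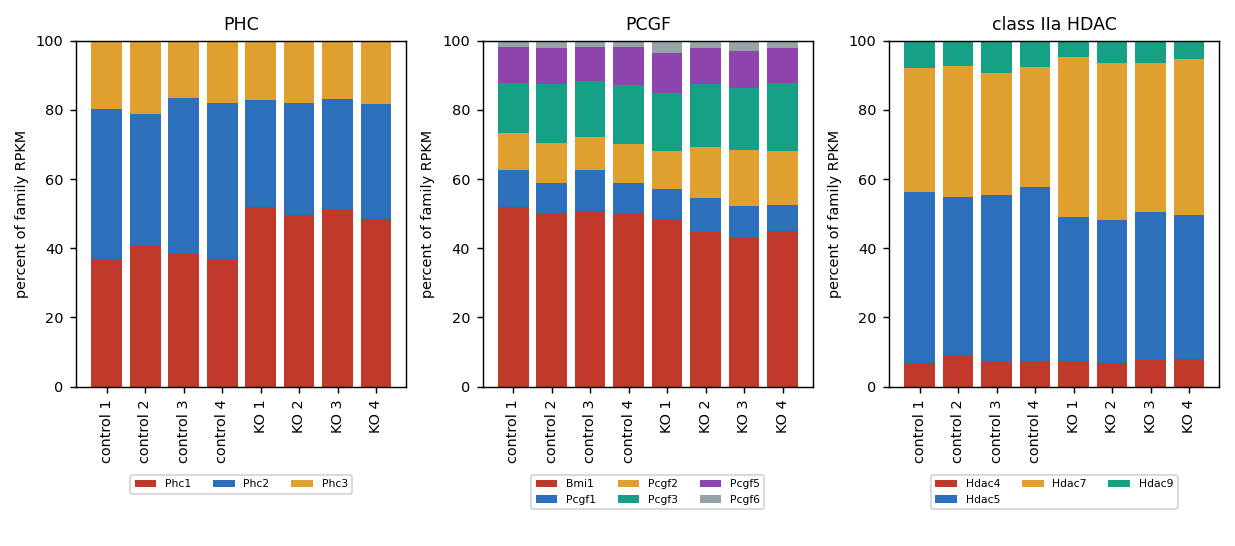
Share of each gene in the summed RPKM of its family (y axis, percent) in each library, for the PHC, PCGF and class IIa deacetylase families. Phc1 takes 48.6% to 51.9% in KO against 36.9% to 41% in control, and Hdac7 43% to 46.2% against 34.8% to 37.8%.

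PRC2 had no called subunit. The number called was 0 of 5 by edgeR, by DESeq2 and by limma-voom, with 0 at an unadjusted p under 0.05 (27.9% of all genes tested were called by edgeR). Ezh2 is the catalytic subunit typical of dividing cells. Controls 1 to 4 were at 12.8, 16.3, 16.3 and 14.95 CPM, while KO 1 to 4 were at 13.95, 17.9, 12.8 and 14.2 CPM. The groups overlapped, and the interval of the log2 difference was -0.32 to 0.25. Ezh1, the catalytic subunit typical of resting tissue, had 53.2 to 66.5 CPM (KO) and 57.7 to 78.6 CPM (control), with an interval of -0.31 to 0.21. Ezh1 made up 78.9 ± 3.02% of the summed RPKM of both in KO and 78.9 ± 2.17% in control (SD, n = 4 each). The core subunits Eed and Suz12 had intervals of -0.05 to 0.25 and -0.07 to 0.23. Jarid2, an accessory subunit that helps recruit PRC2, was at 46.8 CPM in KO 1, 61.3 to 65.7 CPM in the other KO libraries and 62.5 to 73.2 CPM in control (edgeR adjusted p = 0.172).

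Of the 13 histone methyltransferase genes, 0 were called by edgeR, 0 by DESeq2 and 1 by limma-voom, and 1 had an unadjusted edgeR p under 0.05. Over all 18033 genes, these tools called 5032, 5416 and 6143. The 1 gene was Smyd1. Its level was 545, 449.6, 487 and 455 CPM in KO 1 to 4 and 554, 502, 581 and 532 CPM in controls 1 to 4. KO 1 lay among the controls while the other KO libraries lay below them. The log2 fold change was -0.16 (edgeR adjusted p = 0.129, 0.0172 without KO 1, and 0.0304 by limma-voom). The cardiomyocyte markers had a median log2 fold change of -0.35 in the same libraries, and their part in the Smyd1 value was not tested.

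The 4 KMT2 genes, which encode methyltransferases of lysine 4, had log2 values of -0.07 to 0.00. Kmt2a encodes the MLL1 protein. KO 1 to 4 had 69.1, 90.7, 93.95 and 98.8 CPM, and controls 1 to 4 had 82.4, 104, 73.9 and 92.7 CPM. The spread between its libraries was larger than the difference between the groups. The 4 genes summed to 19.2 ± 2.24 RPKM in KO and 19.7 ± 2.17 RPKM in control (SD, n = 4 each).

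The lysine 9 methyltransferase genes Setdb1, Ehmt1, Ehmt2 and Suv39h1 had log2 values of 0.11, -0.09, 0.06 and 0.21, with edgeR adjusted p of 0.242 to 0.482. Ehmt1 had 42.9 to 47.9 CPM (KO) and 48.1 to 51.3 CPM (control), so its groups did not overlap although it was not called. EHMT1 and EHMT2 form a heterodimer, and the ratio of their RPKM was 0.383 ± 0.0142 in KO and 0.428 ± 0.0256 in control (SD, n = 4 each), which overlapped. Setd2 and Nsd1, of lysine 36, and Dot1l, of lysine 79, had intervals of -0.17 to 0.16, -0.12 to 0.20 and -0.29 to 0.06.

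Of 8 lysine demethylase genes, 1 fell and 7 did not pass, a called share of 12.5% against 27.9% of all genes tested. DESeq2 called 1 of them and limma-voom 2. The gene that fell was Kdm2b, whose protein binds CG-rich DNA without methylation and recruits a variant PRC1 complex (chromosome 5, 122870665 to 122989823). In KO 1 to 4 it was at 10.97, 13.9, 13.4 and 13.7 CPM, against 14.7, 15.5, 19.7 and 17.7 CPM in controls 1 to 4. The groups did not overlap, though KO 2 and control 1 were close (log2 fold change -0.38, SE 0.11, edgeR adjusted p = 0.0257). Leaving out KO 3, control 3 or control 4 ended the call (edgeR adjusted p of 0.0505 to 0.0687), as did total counts (0.0795) and controls 1 and 2 alone (0.201). Exons of Rnf34 on the opposite strand overlap 5.77% of its exon bases.

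Kdm5b, a lysine 4 demethylase, lay just outside the threshold. It was at 39.2 CPM in KO 1, 49.4 to 50.2 CPM in the other KO libraries and 35.3 to 42.2 CPM in control, so KO 1 alone fell within the control range. The edgeR adjusted p was 0.0527 (log2 0.25), and without KO 1 it was 0.00404. Kdm5b passed in 8 of the 19 alternatives and did not in the other 11. Several that passed kept KO 1, among them limma-voom (adjusted p = 0.00891). By edgeR these included the replicate block (0.0138), total counts (0.0231) and no filter (0.0233). Kdm1a, the demethylase LSD1, and Kdm2a, Kdm3a, Kdm4a, Kdm5a and Kdm6b had log2 values of -0.09 to 0.12, with edgeR adjusted p of 0.403 to 0.977.

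Of 7 genes of DNA methylation, 1 fell and 6 did not pass, a called share of 14.3% against 27.9% of all genes tested. Tet1, the TET enzyme best known from embryonic stem cells (ENSMUSG00000047146, chromosome 10, 62804570 to 62908996), fell. Controls 1 to 4 were at 31.7, 26.2, 31.9 and 34.3 CPM, while KO 1 to 4 were at 20, 24.6, 20.2 and 20.6 CPM. Each KO library lay below each control, with KO 2 and control 2 the closest, a 1.45-fold decrease (log2 fold change -0.54, SE 0.10, edgeR adjusted p = 0.00142). Tet2 had 37.7 to 50.9 CPM (KO) and 43.03 to 53.2 CPM (control), and Tet3 had 41.6 to 53.7 CPM (KO) and 46.1 to 55.3 CPM (control). Of the summed TET RPKM, Tet1 made up 17.6% to 21.5% in KO against 20.8% to 28% in control, which overlapped.

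Dnmt1 encodes the maintenance methyltransferase. Its level was 50.5, 49.9, 48.02 and 44 CPM in KO 1 to 4 and 44, 45.4, 52.6 and 44.9 CPM in controls 1 to 4. The groups overlapped, with an interval of -0.13 to 0.22 on the log2 scale. Dnmt3a encodes a de novo enzyme. KO 1 to 4 had 85.01, 109.6, 116 and 126 CPM, and controls 1 to 4 had 117, 122, 119.8 and 139 CPM. KO 1 was the lowest, and the difference was not called (log2 -0.19, edgeR adjusted p = 0.214). Dnmt3b and the methyl-CG reader Mbd1 had log2 values of -0.14 and 0.14 (edgeR adjusted p of 0.582 and 0.449).

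Library KO 1 stood apart from the other KO libraries when counts were compared in pairs, but not in principal components. Over the table, chi-square per degree of freedom was 25.4 to 31.4 for pairs of libraries with KO 1. It was 12.2 to 19.5 among the other KO libraries and 15.2 to 30.3 among controls. In principal components of the 500 most variable genes, the second component held 20.3% of the variance. There KO 1 was at 9.72 and KO 4 at 10.6, while KO 2 stood apart at -21.4, as did control 2 at -30.4. KO 1 was the lowest of the 4 KO libraries for 37 of the 58, a count not made over all genes. Control 2 was the highest control for 28 of the 58, and control 1 the lowest for 25. The 58 genes were divided at a merged exon length of 6903.5 bases. In KO 1 the 29 longer genes had a median deviation of -0.20 from their KO mean on the log2 scale, and the 29 shorter genes -0.04. Over protein-coding genes, the same deviations were -0.04 for 3593 longer genes and 0.02 for 11110 shorter genes. Without KO 1, 5 of the 58 genes were called higher and 8 lower, and all 10 of the calls made with KO 1 were among them. The additional calls were Kdm5b, Smyd1 and Cbx6 (edgeR adjusted p = 0.0274 for Cbx6).

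**Figure D5:**
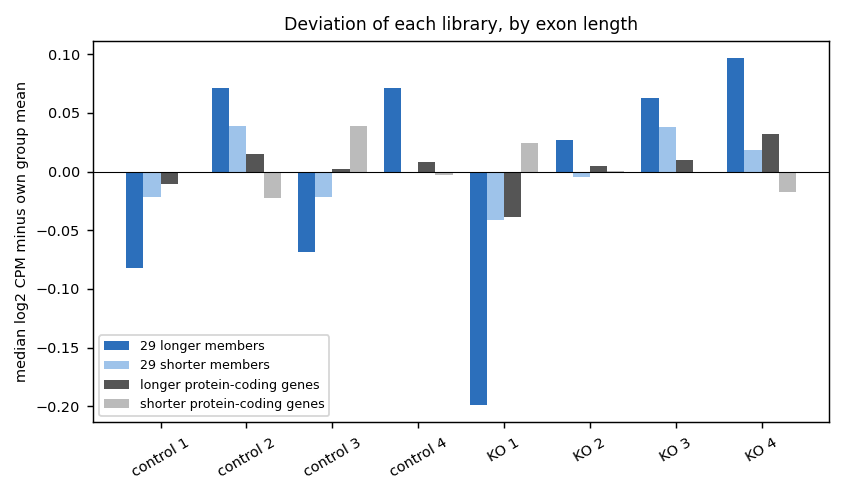
Median deviation of each library from its own group's mean (y axis, log2 CPM) for the longer and shorter of the 58 genes and of all protein-coding genes. KO 1 is lowest for the 29 longer genes, at -0.20, while the other libraries lie between -0.08 and 0.10 for them.

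Further genes of the same pathways, 148 in all, were tested in the same way. Of 143 that passed the filter, 12 rose, 15 fell and 116 did not pass the test, a called share of 18.9% against 27.9% of all genes tested. Their median log2 fold change was -0.02. Levels below run from control to KO, each a mean ± SD with n = 4. These counts moved with single libraries: 7 were higher and 8 lower without KO 2, 7 were higher without control 1, and 7, 7 and 6 were lower without KO 3, KO 4 and control 4. With total counts only, 25 were higher and 3 lower. For a gene whose call was lost with 1 library left out, only those adjusted p are given below, and other alternatives may have ended it too. Of the 9 tested genes of arginine methylation, 4 fell and 5 did not pass. Carm1, which methylates histone H3, fell from 59.2 ± 1.77 to 42.9 ± 4.21 CPM (edgeR adjusted p = 0.000449). Prmt5, the main symmetric arginine methyltransferase, fell from 50.2 ± 3.76 to 38.5 ± 3.19 CPM (0.00263). Its partner Wdr77 fell 1.21-fold (0.0171, 0.0576 without KO 3). Prmt3 fell 1.23-fold (0.0277, 0.0683 to 0.0866 without KO 2, KO 4, control 3 or control 4).

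Among 29 further genes of lysine methylation, 2 rose, 3 fell and 24 did not pass. Of these 5 calls, 2 were kept without KO 3 or control 1 and 3 without KO 2, KO 4 or control 4. Smyd4, a relative of Smyd1 and Smyd2, fell from 10.5 ± 1.22 to 5.07 ± 1.04 CPM (log2 -1.04, edgeR adjusted p = 0.000416). Setd7, which methylates histone H3 and many other proteins, rose from 116 ± 3.35 to 160.1 ± 18.5 CPM (0.000936). Kmt5c, a lysine 20 methyltransferase, rose 1.28-fold (0.0176, 0.0502 to 0.0574 without KO 2, KO 3 or control 1). Of 17 further genes of lysine demethylation, Hr rose, Phf2 fell and 15 did not pass. Hr rose 1.29-fold (edgeR adjusted p = 0.0122, 0.124 against controls 3 and 4 alone). Phf2 fell 1.13-fold (0.0456, 0.0514 to 0.136 without KO 1, KO 2, KO 3, KO 4, control 2, control 3 or control 4).

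Of 30 further Polycomb genes, 4 rose, 3 fell and 23 did not pass. Of these 7 calls, 3 were kept without KO 2 or control 4 and 4 without KO 3, KO 4 or control 1. Yaf2, a subunit of variant PRC1, rose 1.19-fold (edgeR adjusted p = 0.0103, 0.131 against controls 3 and 4 alone). Phf1, an accessory subunit of PRC2, rose 1.23-fold (0.0127, 0.167 against controls 1 and 2 alone). Scmh1, a PRC1 partner, fell 1.16-fold (0.01, 0.0511 against controls 1 and 2 alone and 0.0621 with total counts). Bcor, of the PCGF1 complex, fell 1.17-fold (0.0206, 0.0538 to 0.0701 without KO 2, KO 3 or control 4).

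Of 17 further genes of DNA methylation, 4 rose, 1 fell and 12 did not pass. Of these 5 calls, 3 were kept without KO 1, KO 3, KO 4, control 1 or control 4. Cxxc4 rose 1.53-fold (edgeR adjusted p = 0.00469, 0.0662 against controls 3 and 4 alone). Zbtb4, which binds methylated DNA, rose 1.18-fold (0.00972, 0.102 against controls 1 and 2 alone and 0.0633 against controls 3 and 4 alone). Zbtb38 rose 1.23-fold (0.0173, 0.0513 to 0.0599 without KO 3, KO 4, control 1 or control 4). Uhrf1, the partner of Dnmt1 at replicating DNA, rose from 3.85 ± 1.57 to 7.21 ± 1.19 CPM (0.023, 0.0509 to 0.0614 without KO 1, KO 2 or control 1). Of 15 proliferation genes, 2 rose and 13 did not pass, and their sum was 139.962 to 184 CPM in KO and 109.899 to 181 CPM in control. Their part in the Uhrf1 value was not tested.

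Of 22 further genes of deacetylation, 1 rose and 1 fell, and of 19 of acetylation, 2 fell. Tada3, an adaptor of acetyltransferase complexes, fell 1.23-fold (edgeR adjusted p = 0.00964, 0.0579 with total counts and 0.0716 against controls 1 and 2 alone). Tada2a, another adaptor, fell 1.24-fold (0.0407, 0.0567 to 0.128 without KO 1, KO 2, KO 4, control 1 or control 4). Mier2 rose 1.18-fold (edgeR adjusted p = 0.0248, 0.0518 to 0.0771 without KO 2, KO 3, KO 4, control 1, control 2 or control 4). Sirt5, a mitochondrial sirtuin, fell 1.24-fold (edgeR adjusted p = 0.0345, 0.0571 to 0.0967 without KO 2, KO 3, KO 4, control 1, control 3 or control 4).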

How the data were processed

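Polyadenylated RNA of whole mouse atria was measured in 4 KO and 4 control libraries. The labels number them without tying them to separate mice, so the p-values cover only the spread among libraries, part of which may be technical. The authors deposited raw read counts per gene as whole numbers. The submitters' processing notes name STAR, DESeq2 and mm10 without versions. Which tool counted the reads, with which strand setting and annotation, is not given in the sources used here. Each count column was assigned by the vector and number in its name.

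Counts were filtered by filterByExpr (minimum count 10, minimum total 15), which left 18033 of 54532 genes, scaled by TMM and tested with edgeR 4.0.16 (robust quasi-likelihood, no covariate) in R 4.3.3. Genes with an adjusted p under 0.05 over all genes tested were called. Intervals use the standard error from the F statistic on 6 degrees of freedom. RPKM used merged exon lengths of GENCODE M21 (GRCm38), which also gave gene positions, and depends on the annotated isoforms. The 19 alternatives covered scaling, filters, DESeq2 1.42.0, limma 3.58.1, the replicate block, libraries left out and control pairs. On simulated data for KO against control with 18033 genes, 47.8% of genes changed 1.5-fold and 93.9% of those changed 4-fold were recovered.

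The 58 genes and all other lists were chosen with earlier results of these data known. Called genes are given library by library, up to 4 genes with the smallest p are named per further list, and other genes were named after their values were seen.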

Additional observations from a re-analysis of the deposited data

Results flagged for a closer look

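For each of the 58 genes and each group, the highest or lowest of the 4 libraries was compared with the others, and in 9 of 116 such sets it lay far apart. Chance marks about 1 in 20 sets. In control 2, Hdac10 was at 14.7 CPM against 11.9 to 12.3 CPM in the other controls, Ezh1 at 78.6 against 57.7 to 59.1 CPM, and Ehmt1 at 51.3 against 48.1 to 48.4 CPM. In control 1, Smyd2 was at 14.2 CPM against 7.27 to 7.66 CPM. Myl2, the ventricular light chain gene, was at 268 CPM in that library and at 19.5 to 44.9 CPM in the other controls, and its part in the Smyd2 value was not tested. Gm37422 on the opposite strand overlaps 30% of the exon bases of Smyd2. Without a stated strand setting, reads of Smyd2 and Gm37422 cannot be told apart there. In KO 1, Kdm5b was at 39.2 CPM against 49.4 to 50.2 CPM, Crebbp at 35.6 against 45.1 to 46 CPM, and Hdac11 at 16.8 against 15.3 to 15.4 CPM. In KO 2, Tet1 was at 24.6 CPM against 20 to 20.6 CPM, and in control 3, Dnmt1 was at 52.6 CPM against 44 to 45.4 CPM.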

How the results depend on the processing

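Among the 10 called genes of the 58, Phc1, Bmi1, Hdac7, Tet1 and Hdac11 kept their direction and call in all 19 alternatives. With total counts only, 6 of the 58 were called higher and 3 lower, and of the further pathway genes 25 higher and 3 lower; the median of all genes moved from 0.01 to 0.09 on the log2 scale. By limma-voom, 5 of the 58 and 20 of the further genes were higher. With controls 1 and 2 as the only controls, 4 of the 58 were lower, and of the further genes 5 were higher and 5 lower. With controls 3 and 4 as the only controls, 1700 of all genes and 5 of the further genes were higher. With 1 library left out, 2 to 5 of the 58 were higher and 5 to 8 lower, 7 to 13 of the further genes were higher and 6 to 16 lower, and 2032 to 2687 of all genes were higher and 1877 to 2614 lower. The replicate block gave 3 higher and 6 lower of the 58 (8 of the 10 calls shared, without Hdac5 at an adjusted p of 0.0503 and Hdac8 at 0.0602), 2474 and 2283 over all genes, and 13 and 13 of the further genes. Same-numbered libraries had correlations of -0.0153, 0.303, -0.0563 and 0.105 between their deviations, not each library correlated best with its own number, and the numbers were not taken to pair them. With Y-linked expression, low in KO 2 and controls 1 and 2, as a covariate, all 10 calls of the 58 were shared. The direction of some genes that were not called changed, from log2 values near 0, and the cause was not tested. With total counts, the values were Sirt6 0.046, Ezh1 0.030, Ezh2 0.044, Ring1 0.048, Kmt2a 0.082, Kmt2b 0.013, Kmt2c 0.078, Kmt2d 0.019, Setd2 0.072, Kdm1a 0.077, Kdm4a 0.031, Kdm5a 0.079, Tet2 0.052, Tet3 0.043, Kat2b 0.016. With limma-voom, the values were Ezh1 0.044, Ezh2 0.0014, Ring1 0.0092, Kmt2a 0.064, Kmt2c 0.024, Setd2 0.019, Smyd2 -0.047, Kdm1a 0.0086, Kdm5a 0.024, Tet2 0.026, Tet3 0.0041. With no filter, the values were Kmt2a 0.0021. With the CPM filter, the values were Kmt2a 0.0059, Kmt2c 0.0018, Kdm1a 0.0018, Kdm5a 0.0027. Against controls 1 and 2, the values were Hdac4 -0.058, Sirt1 -0.018, Rnf2 -0.071, Smyd2 -0.25, Kdm1a 0.040. Against controls 3 and 4, the values were Ezh1 0.036, Cbx2 -0.16, Kmt2a 0.058, Kmt2c 0.018, Ehmt2 -0.0056, Dnmt1 -0.042. With the Y-linked covariate, the values were Cbx2 -0.044, Kmt2a 0.031, Kmt2c 0.014, Kdm5a 0.0085. With 1 library left out, the log2 values of genes that changed direction ranged as follows: Cbx2 -0.11 to 0.17, Ezh1 -0.096 to 0.067, Ezh2 -0.15 to 0.024, Hdac4 -0.045 to 0.12, Kdm1a -0.040 to 0.027, Kdm5a -0.042 to 0.019, Kmt2a -0.077 to 0.095, Kmt2c -0.053 to 0.064, Kmt2d -0.14 to 0.0068, Rnf2 -0.023 to 0.047, Setd2 -0.049 to 0.038, Sirt6 -0.078 to 0.0026, Smyd2 -0.076 to 0.31, Tet2 -0.077 to 0.054, Tet3 -0.088 to 0.034. In simulated data with 18033 genes and 4 libraries a group, 47.8% of 67 genes changed 1.5-fold were recovered by edgeR. With 153 genes called there against 5032 in the measured data, that share does not apply to the measured data. Depth was not varied.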

Other observations

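Genes known as Polycomb targets in other tissues were mostly too low to test in these atria. Of 69 such developmental genes, many of them Hox genes, 13 had no count in any library and 17 passed the filter. Of these, edgeR called 2 higher and 2 lower, and 13 did not pass, a called share of 23.5% against 27.9% of all genes tested. A gene near the floor, such as Hoxc10, can pass the filter through its higher group alone. The called share and the calls of such genes depend on that and are a description only. Levels run from control to KO, each a mean ± SD with n = 4. Gata6, a cardiac transcription factor, fell from 144 ± 8.38 to 118 ± 7.35 CPM (edgeR adjusted p = 0.00574). Hoxb3 rose from 0.536 ± 0.136 to 0.956 ± 0.103 CPM (edgeR adjusted p = 0.0349, 0.0553 to 0.0957 without KO 1, KO 2, KO 3, KO 4, control 1 or control 3). Hoxc10 fell from 0.473 ± 0.0971 to 0.173 ± 0.111 CPM (edgeR adjusted p = 0.0411, 0.0547 to 0.101 without KO 1, KO 3, KO 4, control 1, control 2 or control 4). Cdkn2b, an inhibitor of the cell cycle, rose from 0.569 ± 0.375 to 1.34 ± 0.309 CPM (edgeR adjusted p = 0.0316, 0.0614 to 0.0868 without KO 1, KO 3, KO 4, control 1, control 2 or control 4).

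Of 36 germline genes that promoter DNA methylation is known to silence in most tissues, 6 had no count in any library and 13 passed the filter. Of these, edgeR called 3 higher and 2 lower, and 8 did not pass. The higher share was 23.1%, against 14.8% of all genes tested, and the lower share 15.4%, against 13.1%. A gene near the floor, such as Dazl, can pass the filter through its higher group alone. These shares and the calls of such genes depend on that and are a description only. Rhox5, an X-linked homeobox gene, rose from 0.714 ± 0.284 to 3.06 ± 0.594 CPM (edgeR adjusted p = 0.000251), and Tdrd9, of the piRNA pathway, rose from 1.19 ± 0.121 to 2.41 ± 0.108 CPM (0.00111). Dazl rose from 0.2497 ± 0.087 to 0.582 ± 0.143 CPM (edgeR adjusted p = 0.0228, 0.0528 to 0.069 without KO 2, KO 4, control 2 or control 4). The genes that fell were well expressed in control atria, so they were not silent there. Mov10l1, a helicase gene of the piRNA pathway, fell from 35.3 ± 2.87 to 9.27 ± 2.16 CPM (edgeR adjusted p = 3.81e-06), and Tdrkh fell from 11.9 ± 0.823 to 4.43 ± 0.593 CPM (6.09e-06). DNA methylation at these genes was not analysed here.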
